A study of Homo sapiens with 6 samples.

Results

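The genes described here build and run the secretory pathway from the endoplasmic reticulum (ER) to the Golgi apparatus. They were taken by symbol, as the rows of the count table whose names begin with SEC, TMED, COP, TRAPPC, ARF, ARFG, GOLG, SSR, SPCS, COG or STX in the forms used for this pathway. The rule found 63 of the 5117 genes in the table. GENCODE release 29 lists 141 protein-coding genes with such names, and the others, among them the SEC61 channel subunits, COPA, SEC31A and GOLGA2, had no row and were not analysed here.

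RNA was sequenced from HMC3, an established human microglial cell line of wild-type (WT) genotype, grown in MEM with fetal bovine serum and antibiotics. There were 3 libraries from cells treated with conditioned medium containing C1s (C1s-CM), a serine protease of the complement system, and 3 from cells given conditioned medium without it (control CM, titled FLAG). The labels name neither the cells that made the medium nor the length of treatment, and they leave unsaid whether each library had a culture of its own. The p-values therefore rest on the spread between libraries alone, and that spread may be technical. The series title places the comparison in work on microglia in glioblastoma. The deposited table holds only genes that had passed the authors' own threshold in this comparison, so the tests below give sizes and errors and are not independent evidence of change.

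Proteins enter the pathway through the translocon, a channel in the ER membrane, where signal peptidase removes their leader peptide. COPII-coated vesicles carry them out of the ER, p24 proteins help to sort cargo, and COPI-coated vesicles, whose coat is recruited by ARF GTPases, carry proteins back and between Golgi cisternae. Tethering complexes and long coiled-coil golgins catch arriving vesicles, and SNAREs such as the syntaxins fuse them. Microglia use the pathway to release cytokines and to bring receptors to the cell surface.

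Many of these proteins exist as close copies made by separate genes, and such copies often stood on opposite sides of the comparison. Where 1 copy rose and the other fell, it was the copy with the GC-richer transcript that rose. This is not particular to copies: of all genes tested, 97.2% of those with at least 50% GC rose and 93.9% of those with less fell. The coding stretches below, from GENCODE 29 transcripts on GRCh38, show how such copies differ, and capitals mark each G or C at the third position of a codon. The first 180 coding bases of 3 ARF GTPases, and a slightly shorter stretch of ARF6, are given because ARF5 rose, ARF1 did not pass the threshold and ARF4 and ARF6 fell, although ARF5 and ARF4 encode the same amino acid at 162 of 180 codons (90.0%). They lie in exons 1 to 3 (ARF5, plus strand, chr7:127588499-127589516), exons 2 to 3 (ARF1, plus strand, chr1:228097115-228097373) and exons 1 to 3 (ARF4, minus strand, chr3:57583976-57597140), with introns inside these spans, and in exon 2 for ARF6 (plus strand, chr14:49893737-49893904).
ARF5: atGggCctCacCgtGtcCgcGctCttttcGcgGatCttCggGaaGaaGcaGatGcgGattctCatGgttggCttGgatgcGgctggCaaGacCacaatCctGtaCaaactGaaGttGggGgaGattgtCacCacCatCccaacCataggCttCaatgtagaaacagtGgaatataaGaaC
ARF1: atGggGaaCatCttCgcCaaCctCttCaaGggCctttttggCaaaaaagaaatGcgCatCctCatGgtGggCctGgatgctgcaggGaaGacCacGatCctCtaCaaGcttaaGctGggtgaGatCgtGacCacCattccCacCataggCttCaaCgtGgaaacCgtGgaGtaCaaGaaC
ARF4: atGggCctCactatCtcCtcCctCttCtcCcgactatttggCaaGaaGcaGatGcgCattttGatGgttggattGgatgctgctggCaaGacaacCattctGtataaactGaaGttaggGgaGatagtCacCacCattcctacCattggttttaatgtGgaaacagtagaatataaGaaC
ARF6: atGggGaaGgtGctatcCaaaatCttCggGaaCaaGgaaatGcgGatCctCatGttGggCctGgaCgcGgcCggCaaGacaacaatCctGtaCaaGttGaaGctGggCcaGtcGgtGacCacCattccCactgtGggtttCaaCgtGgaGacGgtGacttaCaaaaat
The third position was G or C in 73.3% of these codons in ARF5, 78.3% in ARF1, 55.0% in ARF4 and 80.4% in ARF6. The share in this stretch thus did not order the copies. ARF6 fell with the highest share, and ARF1, which did not pass the threshold, had a higher share than ARF5. Over its whole transcript ARF6 had 42.7% GC. Over the whole of ARF5 and ARF4, 89 of the 162 shared amino acids used another codon. Where only 1 of the copies had G or C at the third position it was ARF5 at 63 codons and ARF4 at 8. The same count gave ARF5 at 23 codons and ARF3 at 18. It went the other way for ARF1, with ARF5 at 11 codons and ARF1 at 24. For ARF6 it did so too, with ARF5 at 15 codons and ARF6 at 22.

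The last 120 coding bases, including the stop codon, are given for a pair of p24 cargo receptors and a pair of Golgi syntaxins, because the first of each pair rose and the second fell. TMED1 lies on the minus strand in exon 4 of 4 (chr19:10832995-10833114) and TMED7 on the minus strand in exon 3 of 3 (chr5:115616209-115616328). STX10 (chr19:13144410-13144619) and STX6 (chr1:180976570-180984719) lie on the minus strand in exons 7 to 8 of 8, with an intron inside each span.
TMED1: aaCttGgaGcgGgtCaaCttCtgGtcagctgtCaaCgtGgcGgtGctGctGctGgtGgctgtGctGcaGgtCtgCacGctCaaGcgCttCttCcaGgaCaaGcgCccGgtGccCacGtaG
TMED7: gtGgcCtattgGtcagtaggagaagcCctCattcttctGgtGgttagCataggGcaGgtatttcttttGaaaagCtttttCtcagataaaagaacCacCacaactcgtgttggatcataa
STX10: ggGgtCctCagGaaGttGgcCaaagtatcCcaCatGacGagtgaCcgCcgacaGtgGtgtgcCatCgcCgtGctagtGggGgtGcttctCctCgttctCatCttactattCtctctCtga
STX6: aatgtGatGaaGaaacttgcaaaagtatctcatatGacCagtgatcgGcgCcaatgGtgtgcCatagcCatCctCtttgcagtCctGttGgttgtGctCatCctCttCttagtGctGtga
In these stretches 92.5% of the third positions were G or C in TMED1 and 37.5% in TMED7, and 70.0% in STX10 and 55.0% in STX6. The TMED1 stretch opens with amino acids close to those of TMED5, and the TMED7 stretch with those of TMED3. In the last 120 coding bases TMED5, which fell, had 45.0% and TMED3, which rose, had 70.0%. TMED1 and TMED7 were thus the highest and lowest of these p24 genes, and their contrast is the widest.

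Some promoters of these genes, a minority, held the letters of 1 known element of the unfolded protein response. By this program cells enlarge their secretory pathway when unfolded proteins gather in the ER. RefSeq promoters (GRCh38.p14, 250 bases before to 50 after the first listed start of each gene) were matched by symbol for 55 of the 63 genes, and 3 elements were searched on both strands. The core of the unfolded protein response element (UPRE), TGACGTGG, occurred in 10 of the 55 promoters (18.2%), in 51 of 4189 promoters of genes in the table (1.22%) and in 217 of all 27305 promoters (0.795%). It occurred in 3 of 71 promoters of genes with such names that had no row (4.23%), and in 4 of 82 promoters of the other pathway genes listed further below (4.88%). The ER stress response element ERSE, made of CCAAT, 9 bases of any kind and CCACG, occurred in 0 of the 55 promoters and in 0.0806% of all promoters, and ERSE-II, made of ATTGG, 1 base of any kind and CCACG, in 0 of the 55 and in 0.0549% of all. The reverse complement of the UPRE core begins with the same 5 letters with which both ERSE forms end, so a match can overlap. With every listed start of each gene searched, the UPRE core was found for 12 of the 55 genes (21.8%) and for 0.927% of all genes. A match is a run of letters and was not tested for binding, and no match says only that these letters are not in the window.

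The 8 genes whose match lay wholly before the start site are shown with 60 bases each, read in the direction of the gene, with the match in capitals as TGACGTGG or its reverse complement CCACGTCA. They are SEC62 (plus strand, chr3:169966747-169966806), SEC24A (plus strand, chr5:134648580-134648639), COPB1 (minus strand, chr11:14499826-14499885), COPB2 (minus strand, chr3:139389810-139389869), ARF1 (plus strand, chr1:228082648-228082707), ARFGEF3 (plus strand, chr6:138161879-138161938), GOLGA5 (plus strand, chr14:92794100-92794159) and STX5 (minus strand, chr11:62832052-62832111).
SEC62: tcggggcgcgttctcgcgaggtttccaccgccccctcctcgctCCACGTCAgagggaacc
SEC24A: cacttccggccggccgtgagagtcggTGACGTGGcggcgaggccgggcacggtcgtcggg
COPB1: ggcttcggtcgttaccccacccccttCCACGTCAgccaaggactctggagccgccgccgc
COPB2: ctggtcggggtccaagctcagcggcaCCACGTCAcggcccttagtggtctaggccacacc
ARF1: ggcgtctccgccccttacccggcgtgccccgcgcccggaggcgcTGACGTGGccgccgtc
ARFGEF3: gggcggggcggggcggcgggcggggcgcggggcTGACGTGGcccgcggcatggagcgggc
GOLGA5: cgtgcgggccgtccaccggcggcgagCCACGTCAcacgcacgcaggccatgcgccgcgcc
STX5: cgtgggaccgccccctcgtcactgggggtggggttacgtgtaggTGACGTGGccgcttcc
Counted from the start site, with -1 as the last base before it, the matches began at -179 in SEC24A and GOLGA5, -163 in COPB2, -48 in COPB1, -27 in ARFGEF3, -17 in SEC62, and -16 in ARF1 and STX5. SEC23A and SEC16A held the core across or after the start site, and COPB2 held a further one after it. The promoters with the core did not move as 1 group: STX5 and SEC16A rose, SEC62, SEC23A, SEC24A, COPB1, COPB2, ARFGEF3 and GOLGA5 fell, and ARF1 did not pass the threshold.

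In the table as a whole, nearly every gene was past the threshold. Counts were compared with edgeR's quasi-likelihood test after TMM scaling, with p-values adjusted over all 5116 genes tested (Benjamini-Hochberg, threshold 0.05). The test called 99.4% of them, 50.9% higher in C1s-CM and 48.5% lower. Read against these shares, the secretory genes leaned to the lower side, with 22 higher, 39 lower and 2 not past the threshold. Their median log2 fold change, C1s-CM over control CM, was -0.24, beside 0.08 over all genes tested. The sizes were those of the table at large, as the absolute log2 fold change had a median of 0.33 in the members and 0.31 over all. The 2 groups of libraries did not overlap for 62 of the 63 genes, beside 97.2% of all genes. The table's counts summed to 12730766 to 14961744 per library, and the 63 genes took 0.922, 0.936 and 0.934% of them in the C1s-CM libraries and 1.02, 1.02 and 1.03% in the control libraries.

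Library scaling bears on how many genes were called on each side. With scaling by library totals alone, the median of all genes shifted by -0.13, to -0.05. That of the secretory genes went to -0.36, so they lay as far below the table as with TMM. Under library totals 12 of the secretory genes were called higher and 41 lower, beside 26.1% and 49.2% of all genes (75.3% called in all). ARF1, COPZ1, SEC13, ARF3, TMED9 and SEC16A, all with a small change, turned in sign under that scaling, and ARF1 and COPZ1 were then called lower. SSR2, TRAPPC6A, TRAPPC1, TRAPPC3, COG4 and COG1 kept their sign and lost their call. In bulk RNA, fewer cells of a kind and less RNA per cell cannot be told apart. The defining microglial markers, AIF1, CX3CR1, P2RY12, TMEM119 and CSF1R among them, were not analysed here, so the labelled cell type could not be checked against them. GJA1 was the 1 of 7 astrocyte markers with a row (87.8 to 99.1 CPM, counts scaled to a common library size, in C1s-CM, 115 to 119 in control), COL1A1 and PDGFRB were 2 of 8 fibroblast and mural markers (3918 to 4059 CPM summed in C1s-CM, 3850 to 3931 in control), and no neuron or oligodendrocyte marker had one. Their part in the results was not tested.

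**Figure D1:**
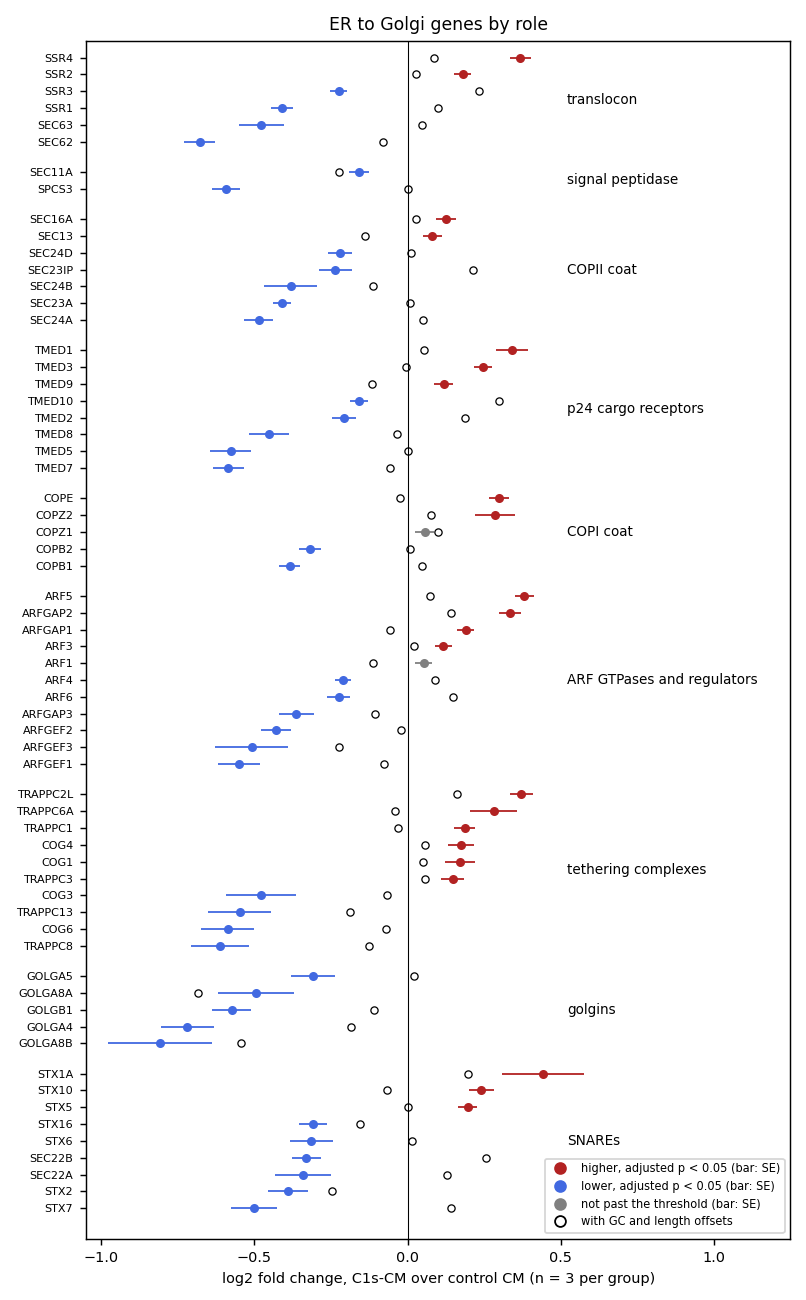
Log2 fold change of each of the 63 genes (x axis, C1s-CM over control CM, 3 libraries each), grouped by role, as filled points with the standard error as bars. Red marks the 22 genes called higher, blue the 39 called lower and grey the 2 not past the threshold. Open circles show the same genes after offsets for GC content and length. Filled points of 1 role lie on both sides of 0 in every role but signal peptidase and the golgins, and most open circles lie near 0.

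The translocon group split between the subunits of a single complex. SSR4 and SSR2, which with SSR1 and SSR3 form the translocon-associated protein (TRAP) complex beside the channel, rose, while the other subunits and the accessory proteins SEC62 and SEC63 fell. SSR4 (ENSG00000180879, chrX:153793516-153798505) had 409, 439 and 413 CPM in the C1s-CM libraries and 343, 316 and 318 in the controls. Every C1s-CM library lay above every control library, with a log2 fold change of 0.37 ± 0.03 (SE, adjusted p = 1.14e-09). SSR2 rose by 0.18 (4.54e-06), but lost its call with library totals alone (0.05, adjusted p = 0.0778) and was at 0.03 with the representative transcript's offsets and 0.41 with the longest transcript's. SSR1 had 176, 172 and 159 CPM in C1s-CM and 220, 230 and 224 in the controls. The C1s-CM libraries were the lower ones throughout, and its log2 fold change was -0.41 ± 0.04 (adjusted p = 6.79e-10). SSR3 fell by 0.22 on the log2 scale. The log2 ratio of SSR4 to SSR1, which no library scaling can alter, was 1.31 ± 0.09 (SD, n = 3) in C1s-CM and 0.54 ± 0.10 in control CM, a difference of 0.78. This pair and the other pairs within complexes below were chosen after their values were seen and were not tested.

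SEC62, which with SEC63 helps short and finished chains into the channel, fell most in the group. It had 64.5, 61.9 and 66.7 CPM in C1s-CM against 95.7, 110.4 and 103 in the controls, so that all the treated libraries lay well under the lowest control. Its log2 fold change was -0.68 ± 0.05 (SE, adjusted p = 5.67e-11). SEC63 had -0.48 ± 0.07. Of the 6 translocon genes with a row, 2 rose and 4 fell, beside 50.9% and 48.5% of all genes tested, with a median of -0.32.

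Both signal peptidase genes with a row fell, beside 48.5% of all genes tested. SPCS3, a subunit that the enzyme needs for activity, had 71.6, 74.5 and 69.9 CPM in C1s-CM and 105, 106 and 114 in the controls, with no overlap (log2 fold change -0.59 ± 0.05, adjusted p = 7.03e-11). SEC11A, a catalytic subunit, had 191, 193 and 186 against 218, 206 and 212 CPM. This smaller fall of 0.16 on the log2 scale again left no overlap between the groups (adjusted p = 9.35e-05).

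In the COPII coat, which buds vesicles at ER exit sites, the inner-layer proteins that touch cargo fell and 2 scaffold or outer-layer genes rose a little. SEC23A, the subunit that activates the GTPase SAR1, had 214, 221 and 215 CPM in C1s-CM and 284, 291 and 290 in the controls. The gap between the groups was many times the spread within either, and the log2 fold change was -0.41 ± 0.03 (adjusted p = 2.62e-11). Of the SEC24 proteins, which select cargo, SEC24A fell by 0.49, SEC24B by 0.38 and SEC24D by 0.22 on the log2 scale. SEC23IP, a binding partner of SEC23, fell by 0.24. SEC16A, the exit-site scaffold, had 208, 199 and 201 CPM in C1s-CM and 182, 185 and 190 in the controls (log2 fold change 0.13 ± 0.03, adjusted p = 8.57e-04). SEC13 of the outer layer, which also serves in nuclear pores, was at 0.08 ± 0.03 (adjusted p = 0.0149). The call of SEC13 was lost with DESeq2 (adjusted p = 0.0755), without C1s-CM replicate 3 (0.0614) and without control replicate 2 (0.0901). The COPII median was -0.24 over 7 genes.

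The p24 cargo receptors split within a single subfamily. TMED1, TMED3, TMED5 and TMED7 all belong to the gamma branch, and the first 2 rose while the last 2 fell. TMED1 had 61.1, 63.4 and 64.1 CPM in C1s-CM and 48.8, 50.1 and 49.9 in the controls (log2 fold change 0.34 ± 0.05, adjusted p = 2.29e-06). TMED3 rose by 0.25 (6.52e-08). Its value with the offsets described below depended on the transcript: -0.006 with the representative one and 0.54 (adjusted p = 1.88e-13) with the longest. TMED7 had 89.6, 81.5 and 78.4 CPM against 117, 132 and 126, and TMED5 had 32.1, 28.7 and 33.1 against 43.9, 47.1 and 48.7. Both sets of treated libraries lay under the controls, with log2 fold changes of -0.58 ± 0.05 (adjusted p = 3.44e-10) and -0.58 ± 0.07 (5.05e-08). TMED7 shares exons with a read-through gene, TMED7-TICAM2, and reads of the pair cannot be told apart here. Per kilobase of transcript, TMED9 was the highest of all 63 genes, at 699 CPM per kb in C1s-CM and 644 in control CM. It rose by 0.12 (adjusted p = 9.19e-04), while TMED10 and TMED2, the delta and beta members found with it in p24 complexes, fell by 0.16 and 0.21 on the log2 scale. With the offsets for GC content and length described below these sides were turned, with TMED9 at -0.12, TMED10 at 0.30 and TMED2 at 0.19. TMED8, whose relation to cargo sorting is less known, fell by 0.45. Of the 8 p24 genes 3 rose and 5 fell (median -0.18), beside 50.9% and 48.5% of all genes tested.

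The COPI coat, a complex of different subunits called coatomer, was split as well. COPE, the epsilon subunit, had 232, 243 and 244 CPM in C1s-CM and 197, 188 and 200 in the controls (log2 fold change 0.30 ± 0.03, adjusted p = 2.36e-08). COPB1, the beta subunit, had 126, 132 and 128 against 167, 170 and 167 CPM (-0.39 ± 0.03, adjusted p = 9.67e-10), and COPB2 fell by 0.32. In neither gene did a treated library reach the level of any control. The log2 ratio of COPE to COPB1 was 0.90 ± 0.03 (SD, n = 3) in C1s-CM and 0.21 ± 0.06 in control CM. COPZ2, the less abundant zeta subunit, rose by 0.29 (adjusted p = 2.59e-04). COPZ1, the main zeta subunit, had 369, 394 and 395 CPM against 382, 361 and 370. It was the 1 gene whose groups overlapped (log2 fold change 0.06, adjusted p = 0.0823), and it passed the threshold without C1s-CM replicate 1 (adjusted p = 0.00490) or control replicate 1 (0.0389). With library totals alone COPZ1 was called lower (-0.07, adjusted p = 0.0429). With the offsets for GC content and length described below it was called higher (0.10, 0.0102), but not with the longest transcript (-0.01, 0.818).

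Among the ARF GTPases, which recruit COPI and other coats, ARF5 rose most. It had 271, 261 and 274 CPM in C1s-CM and 208, 204 and 207 in the controls, and the groups stood far apart (log2 fold change 0.38 ± 0.03, adjusted p = 1.69e-10). ARF3 rose by 0.12 (3.06e-04). ARF1, the most abundant ARF per kilobase, had 642, 663 and 658 CPM against 637, 630 and 626. Its treated libraries all lay above the controls, by little (log2 fold change 0.05, adjusted p = 0.0584). It was called higher without C1s-CM replicate 1 (0.07, adjusted p = 0.0211), and lower with library totals alone (-0.07, 0.00972) and with the offsets for GC content and length described below (-0.11, 5.77e-04). ARF4 had 378, 364 and 367 CPM against 423, 427 and 433 (-0.21 ± 0.03, adjusted p = 2.71e-07), and ARF6, which acts at the cell surface rather than the Golgi, fell by 0.23 on the log2 scale. ARF genes have processed pseudogenes that can share their reads, and the counting rule for such reads is not stated for these data.

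The regulators of the ARFs did not move together. The GTPase-activating proteins ARFGAP2 and ARFGAP1, which switch ARF1 off on COPI vesicles, rose by 0.33 (adjusted p = 9.13e-09) and 0.19 (1.47e-06), whereas ARFGAP3, a close relative of ARFGAP2, fell by 0.36. ARFGAP2 had 195, 210 and 201 CPM in C1s-CM and 165, 157 and 159 in the controls, and ARFGAP3 had 42.5, 47.2 and 43.5 against 57.4, 56.2 and 57.8. The exchange factors ARFGEF1 and ARFGEF2, which switch ARFs on at the trans-Golgi, fell by 0.55 and 0.43, and the related ARFGEF3, at 6.98 to 8.90 CPM in C1s-CM and 11.3 to 12.2 in control CM, fell by 0.51. ARFGEF3 has an SE of 0.12, the widest of this group.

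Tethering complexes were the only role group with more genes higher than lower, 6 against 4, beside 50.9% and 48.5% of all genes tested. Their median log2 fold change was 0.16, and their median GC content of 51.9% was the highest of the role groups. Under library totals alone the median log2 fold change was 0.03, with 1 called higher and 4 lower. TRAPP, which activates RAB1 on arriving vesicles, split into small core subunits, which rose, and TRAPPC8 and TRAPPC13, found in the TRAPPIII form of the complex, which fell. TRAPPC2L had 146, 146 and 149 CPM in C1s-CM and 117, 113 and 110.5 in the controls (log2 fold change 0.37 ± 0.04, adjusted p = 4.12e-09). TRAPPC6A rose by 0.28, TRAPPC1 by 0.19 and TRAPPC3 by 0.15, and with library totals alone their adjusted p was 0.0750, 0.0967 and 0.601. TRAPPC8 had 11.5, 11.99 and 12.6 CPM against 17.7, 18.7 and 18.6, clear of each other (-0.61 ± 0.09, adjusted p = 2.95e-06), and TRAPPC13 fell by 0.55. The log2 ratio of TRAPPC2L to TRAPPC8 was 3.61 ± 0.05 (SD, n = 3) in C1s-CM and 2.63 ± 0.09 in control CM, the widest shift among the complexes examined this way.

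The COG complex, which tethers vesicles that recycle Golgi enzymes, showed the same kind of split. COG4 and COG1 rose by 0.17 each (adjusted p = 5.05e-04 and 0.00209), COG3 fell by 0.48 and COG6 by 0.59. COG6 had 14.2, 15.8 and 16.1 CPM in C1s-CM and 22.9, 23.2 and 23.2 in the controls. The treated libraries of COG6 were more spread than its controls and did not reach them (adjusted p = 1.49e-06). The log2 ratio of COG4 to COG6 was 3.21 ± 0.09 (SD, n = 3) against 2.45 ± 0.10.

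All 5 golgins with a row fell, with a median of -0.57, the lowest of the role groups. Of all genes tested 48.5% fell, and 93.9% of those with under 50% GC, as 4 of the golgins had. GOLGB1 (giantin), which spans the rims of Golgi stacks, had 28.8, 29.2 and 29.4 CPM in C1s-CM and 41.9, 44.0 and 44.0 in the controls (log2 fold change -0.57 ± 0.06, adjusted p = 2.14e-08). GOLGA4 (golgin-245), which captures vesicles at the trans-Golgi, had 17.1, 15.7 and 15.9 against 28.8, 24.6 and 26.9 CPM (-0.72 ± 0.09, adjusted p = 7.30e-08), and GOLGA5 (golgin-84) fell by 0.31. In each of these genes the groups were clear of each other. GOLGA8A fell by 0.49 and GOLGA8B by 0.81. These are near-identical copies on chromosome 15 at 2.93 to 10.1 CPM, reads shared between them can be split arbitrarily, and their separate values are uncertain.

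Among the SNAREs, 3 of 9 rose and 6 fell (median -0.31), beside 50.9% and 48.5% of all genes tested. STX5, the syntaxin of ER-to-Golgi fusion, had 247, 253 and 250 CPM in C1s-CM and 223, 212 and 220 in the controls (log2 fold change 0.20 ± 0.03, adjusted p = 3.45e-06). Its partner SEC22B had 128, 112 and 114 against 149, 157 and 139 CPM (-0.33 ± 0.05, adjusted p = 9.99e-07). The partners thus lay on opposite sides, each without overlap, as for 97.2% of all genes. With the offsets described below SEC22B was called higher (0.26, adjusted p = 1.67e-04) and STX5 was at 0.002 (0.975). At the trans-Golgi, STX10 rose by 0.24 and its close copy STX6 fell by 0.31, and STX16 fell by 0.31. STX16 shares exons with a read-through gene, STX16-NPEPL1. STX1A, a syntaxin of regulated exocytosis at 8.05 to 8.23 CPM against 5.34 to 6.82, rose by 0.44 with an SE of 0.14 (adjusted p = 0.00350). The endosomal and surface syntaxins STX7 and STX2 fell by 0.50 and 0.39, and SEC22A by 0.34.

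**Figure D2:**
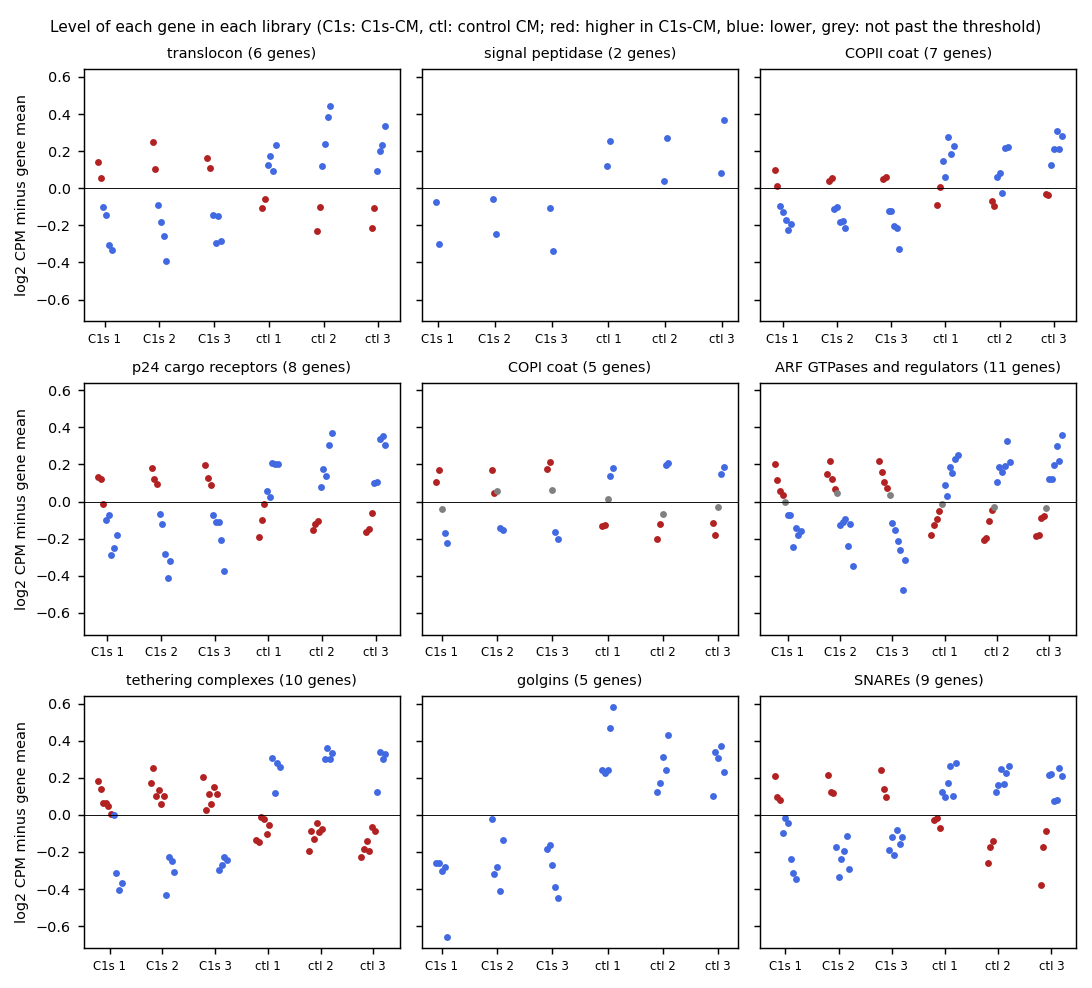
Each gene's log2 CPM in each of the 6 libraries minus its mean over the libraries (y axis), 1 panel per role, with genes side by side within a library and coloured by their call. Red genes lie mostly above their mean in the C1s-CM libraries and blue genes below it, with a few points at or just across 0, such as TMED9 in C1s-CM replicate 1 and SEC24B in control replicate 2.

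Transcript composition moved with the side on which a gene fell. Of the 24 secretory genes whose representative transcript had at least 50% GC, 21 rose and 2 fell, SEC11A and GOLGA8A, and among all genes tested of that composition 97.2% rose and 1.9% fell. Of the 39 with less GC, 1 rose, TRAPPC3, which at 49.96% was next to the limit, and 37 fell, where 93.9% of all such genes fell and 5.87% rose. The split in the pathway was therefore close to that of the table. Genes that rose had a median GC content of 57.7% and a median transcript length of 1449 bases, and those that fell 41.3% and 4335 bases. Across the 63 genes, Spearman's rho of the log2 fold change was 0.82 with GC content and -0.71 with length, and 0.85 and -0.55 across all 5112 genes with an annotated transcript. These are correlations across genes of the same libraries, and genes are not independent replicates.

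The contrast lay in the transcript and less in the promoter. The 3′ UTRs of genes that rose had a median GC content of 57.1% and a length of 524.5 bases, against 35.6% and 2408 bases in genes that fell. Coding sequences had medians of 56.1% and 44.0%, and promoters 68.3% and 67.0%. The regions did not always go together, and neither alone gave the side. ARF6 and TMED8 had coding sequences of 55.9% and 55.6% GC and 3′ UTRs of 33.9% and 41.0%, and both fell. COG1, with 54.2% in its coding sequence and 33.9% in a 3′ UTR of 56 bases, and SEC13, with 56.4% and 46.4%, rose. These genes were picked after their values were seen. Whether GC content or length acts on the RNA in the cells or on its measurement was not tested.

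**Figure D3:**
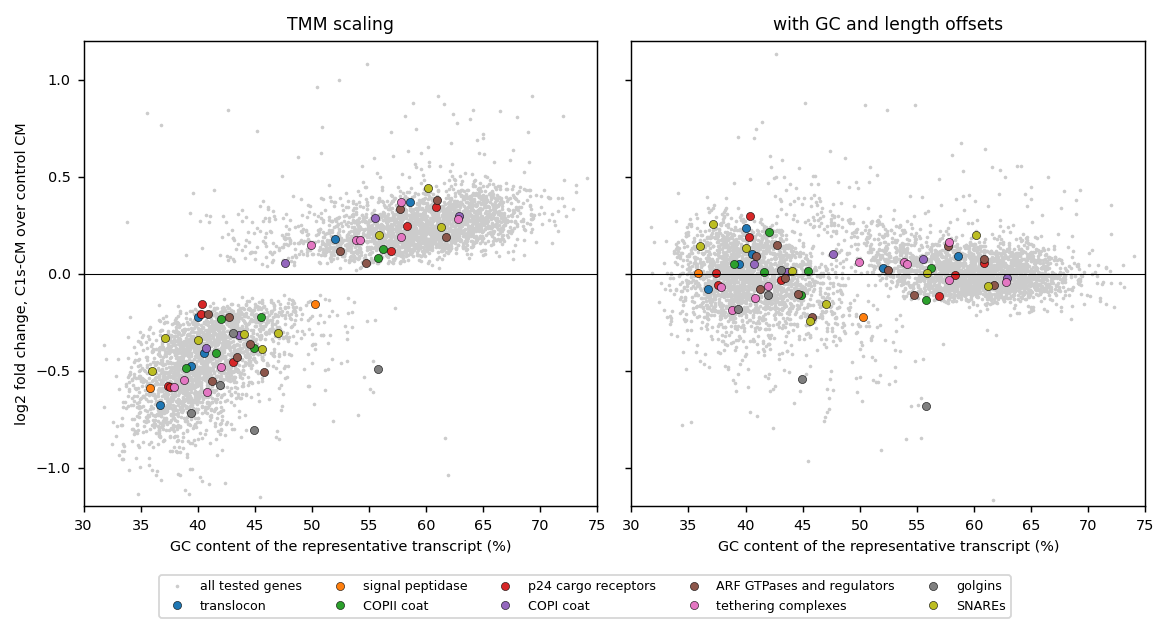
Log2 fold change (y axis, C1s-CM over control CM) against the GC content of the representative transcript in percent (x axis), for all tested genes in grey and the 63 secretory genes coloured by role. On the left, with TMM scaling, AT-rich genes lie below 0 and GC-rich genes above it, and the secretory genes lie within that band, with GOLGA8A below it. On the right, after offsets for GC content and length, the roles overlap around 0. The axes leave out 8 genes on the left and 9 on the right, none of them secretory.

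With offsets per library for GC content and length, fitted over the table, 25.6% of all genes were called, 14.4% higher and 11.2% lower. Of the secretory genes 12 were then higher and 8 lower, and their median log2 fold change was 0.01. With the longest transcript of each gene in place of the representative one, 26.6% of all genes were called, 14.4% higher and 12.3% lower, and 16 and 8 of the secretory genes. With the representative transcript, 29 secretory genes changed sign. Of 18 genes called in both fits, 10 turned direction, as did 41.6% of the 1285 genes called in both across the table. The offsets also remove any true difference that follows GC content or length.

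Each role came closer to 0 with the offsets. Role medians were 0.07 for the translocon, -0.11 for signal peptidase, 0.01 for COPII, -0.002 for p24 proteins, 0.05 for COPI, -0.02 for the ARF group, -0.04 for tethers, -0.18 for golgins and 0.01 for SNAREs. The golgin median rests on the GOLGA8 copies, whose separate values are uncertain: the other 3 golgins were at 0.02 (GOLGA5), -0.11 (GOLGB1) and -0.18 (GOLGA4), with adjusted p of 0.876, 0.195 and 0.119. The log2 ratios within complexes closed too: SSR4 to SSR1 differed by -0.01 between the groups, COPE to COPB1 by -0.07, COG4 to COG6 by 0.13 and TRAPPC2L to TRAPPC8 by 0.29.

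Some genes stood apart from others of their composition. TMED10 (0.30, adjusted p = 2.29e-08), SEC22B (0.26, 1.67e-04), SSR3 (0.23, 2.98e-07), SEC23IP (0.21, 0.00270) and TMED2 (0.19, 3.95e-04) were higher with the offsets, although each of them fell without them: they fell less than genes of like GC content and length. GOLGA8A (-0.68, adjusted p = 1.80e-04), GOLGA8B (-0.54, 0.0218), STX2 (-0.25, 0.00555), SEC11A (-0.22, 4.79e-06) and STX16 (-0.16, 0.00761) were lower both with and without them. With the longest transcript, the value of STX2 with offsets was -0.08 and no longer past the threshold (adjusted p = 0.360), and that of GOLGA8A was -0.34 (0.0406). ARFGAP2 (0.14, 0.00216), TRAPPC2L (0.16, 0.00112) and SSR4 (0.09, 0.0166) were higher in both. TMED9 (-0.12, adjusted p = 0.00223) and SEC13 (-0.14, 7.71e-04) went from higher without the offsets to lower with them. With the longest transcript, SEC13 was at -0.02 and not past the threshold (adjusted p = 0.604). With each library left out in turn, an alternative added after the data had been seen, the offsets gave 10 to 11 higher and 7 to 8 lower secretory genes.

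Comparing paralogs within a library removes the effect of library scaling. In 10 families with at least 2 genes in the table, 28 pairs could be formed, and the log2 ratio of the GC-richer to the GC-poorer copy was compared between the groups. The ratio was higher in C1s-CM for 23 of the 28 pairs. In 22 pairs the 2 groups did not overlap, 20 of them with the GC-richer copy up. An exact two-sided permutation test of 3 against 3 libraries gave p = 0.1 for these pairs, the smallest that it can give, and 0.127 after adjustment over the 28, so none could pass the threshold. Pairs share genes and libraries and are not independent. In 12 pairs 1 copy rose and the other fell, and in all 12 it was the GC-richer copy that rose. Of all genes tested, 97.2% of those with at least 50% GC rose and 93.9% of those with less fell. Most pairs of genes on either side of that limit would therefore divide in this way, paralogs or not. Counts for pairs of other genes were not computed. Of the 14 pairs that differed by at least 10 points of GC content, 14 had a higher ratio in C1s-CM, 13 of them without overlap.

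Taking the widest pair of each family, the largest shifts were between the p24 receptors TMED1 and TMED7 and between the syntaxins STX1A and STX2. The log2 ratio of TMED1 to TMED7 was -0.40 ± 0.13 (SD, n = 3) in C1s-CM and -1.33 ± 0.07 in control CM, and that of STX1A to STX2 was -2.14 ± 0.10 and -2.98 ± 0.26. ARFGAP2 to ARFGAP3 shifted by 0.70, ARF5 to ARF6 by 0.60, ARF5 to ARF4 by 0.59 and STX10 to STX6 by 0.56. Copies of like composition shifted less: TMED7 to TMED5, which differ by 0.175 points of GC content, shifted by -0.01, and ARF6 to ARF4 by -0.01, both with overlapping groups. A pair that went the other way was ARFGAP1 to ARFGAP2, whose ratio fell by 0.14 although ARFGAP1 is the GC-richer. With the offsets, the median absolute shift went from 0.30 to 0.08 and 8 pairs did not overlap. The ratio was higher in C1s-CM for STX1A to STX2 (0.44), ARFGAP2 to ARFGAP3 (0.25) and ARF5 to ARF1 (0.19). It was lower for ARF1 to ARF6 (-0.26), ARF1 to ARF4 (-0.20), ARFGAP1 to ARFGAP2 (-0.20), ARF1 to ARF3 (-0.13) and ARF3 to ARF6 (-0.13). The value of STX2 with offsets depended on the transcript chosen, as given above.

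**Figure D4:**
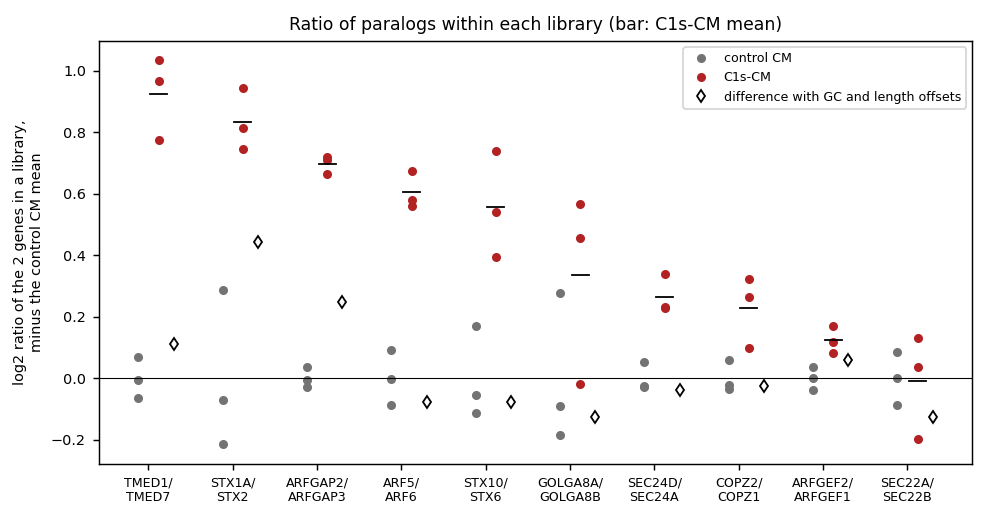
Log2 ratio of 2 paralogs in each library minus the control CM mean of that ratio (y axis), for the pair with the widest shift in each of 10 families (x axis, GC-richer copy first). Grey points are control CM, red points C1s-CM with their mean as a bar, and diamonds the difference with offsets for GC content and length. For TMED1 to TMED7 the mean shift is 0.93 and the groups are apart, for SEC22A to SEC22B they overlap, and most diamonds lie near 0.

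The partners of these genes, taken from 6 lists of other ER-to-Golgi genes, divided in nearly the same proportions. Of 101 listed genes 63 had a row, and 22 rose, 39 fell and 2 did not pass the threshold, with a median of -0.24. Of all genes tested, 50.9% rose and 48.5% fell. Of the signal recognition particle and its receptor, which bring ribosomes to the translocon, 4 of 5 genes fell and SRPRA rose by 0.07. In the oligosaccharyltransferase, which adds glycans to chains in the ER, 4 genes rose and 5 fell, with OST4 at 0.28 and the catalytic STT3B at -0.40. Among further COPII and exit-site genes 6 rose and 9 fell. The cargo receptor LMAN1 was at -0.65 and the collagen export factors MIA2 and MIA3 at -0.65 and -0.51, while YIF1B, a Golgi transport factor, was at 0.30 and ERGIC3 at 0.21.

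Further tethers and golgins were the most one-sided of these lists. Of 14, 13 fell and 1 rose, with a median of -0.50, beside 48.5% lower and 50.9% higher of all genes tested. TMF1 was at -0.90, GCC2 at -0.82, TRIP11 (GMAP-210) at -0.69 and USO1 (p115), which tethers COPII vesicles, at -0.58. The one that rose was RAB1B, at 0.22, and its close copy RAB1A fell by 0.31. The list had a median transcript GC content of 38.8%, the lowest of the 6, and of all genes tested with under 50% GC, 93.9% fell. The share of the list that fell was thus close to that of genes of such composition. With the offsets 3 of its genes were higher and 4 lower, with a median of -0.09. Among further COPI and return genes 5 rose and 5 fell, with the KDEL receptors, which bring ER proteins back, at -0.22 for KDELR2, -0.18 for KDELR3 and 0.05 for KDELR1 (adjusted p = 0.0638). Of 8 further SNAREs and their regulators 5 rose, among them USE1 at 0.33 and NAPA at 0.32, and 3 fell, with STXBP3 at -0.60 and SCFD1 at -0.51.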

How the data were processed

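Poly(A) RNA was fragmented and sequenced from both ends, per the labels' protocols. Per the submitters' processing notes, FastQC 0.11.9, Trim Galore 0.6.7, HISAT2 2.2.1 and DESeq2 1.40.2 were used on GRCh38. A read counter, an annotation and a strand setting were not given in the sources used here, and reads of overlapping genes may therefore be mixed. The authors deposited raw counts per gene and, per the file headers, their own log2 fold change, p-value and adjusted p-value, which does not exceed 0.05. Totals per library thus cover called genes only and are not the depth. All 63 members have the sign of the authors' deposited table, whose log2 fold changes lay a median of 0.04 above the values computed here.

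Counts of the 6 libraries were tested with edgeR 4.0.16 in R 4.3.3 (filterByExpr, which removed 1 gene, TMM, group as the only term, quasi-likelihood test, two-sided). CPM are counts scaled by the table's total and the TMM factor of a library. TMM assumes that most genes do not change, whereas all genes in the table had been called. Replicates were not duplicates (chi-square per degree of freedom 2.02 to 4.96). GC content and length are of 1 representative transcript per gene in GENCODE 29, which held 5113 of the 5117 identifiers, and offsets came from a loess fit of log2 CPM (span 0.3). The steps were also run on simulated counts in which a small part of the genes was changed, with and without a trend on GC content. In the real data nearly every gene was called, so that run does not show how TMM and the offsets behave on them.

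Named are, in each role, the 3 largest rises and 3 largest falls past the threshold and every member of a family with at least 2 rows, which makes 53 genes, and others were named after their values were seen. The members, roles and lists were chosen with earlier results of these data known. Alternatives were other scalings, DESeq2 1.42.0, filters, the offsets, a replicate block and leaving out each library. A marker gene result is not reported here.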

Additional observations from a re-analysis of the deposited data

How the results depend on the processing

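RLE size factors, no filter, a mean count of at least 50 and the replicate block left the direction and call of the 53 named genes as they were, and DESeq2 left 52, the exception being SEC13. Deviations from the group means were not positively correlated between same-numbered libraries (-0.13, -0.09 and -0.003, against -0.06 to 0.14 for other combinations). This cannot show whether libraries were handled in numbered pairs. The block gave 22 higher, 39 lower and 5054 genes called in all. Leaving out each library in turn gave 21 to 24 members higher, 39 lower and 4996 to 5051 genes called, and of 318 such values of named genes 313 kept their call, 2 were weaker, 3 stronger and 0 reversed. The translocon median ranged from -0.34 to -0.29, and the SEC22A to SEC22B ratio changed sign without C1s-CM replicate 1 (0.085) or control replicate 1 (0.034), with a range of -0.080 to 0.085. Reversed here means a change of sign, whether or not the new value was past the threshold. With the offsets, for example, SPCS3 (adjusted p = 0.977) and TMED5 (0.988) were not. With library totals alone 12 members were higher, the role medians were translocon -0.44, signal peptidase -0.50, COPII coat -0.36, p24 cargo receptors -0.31, COPI coat -0.069, ARF GTPases and regulators -0.34, tethering complexes 0.034, golgins -0.70, SNAREs -0.44, and the values that reversed were SEC16A -0.0002, SEC13 -0.044, TMED9 -0.0071, COPZ1 -0.069, ARF3 -0.0082, ARF1 -0.073. With GC and length offsets 1310 genes, 12 higher and 8 lower members were called, and the role medians were translocon 0.068, signal peptidase -0.11, COPII coat 0.011, p24 cargo receptors -0.0024, ARF GTPases and regulators -0.021, tethering complexes -0.037, golgins -0.18, SNAREs 0.014. The values that reversed were SSR1 0.10, SEC63 0.048, SPCS3 0.0027, SEC13 -0.14, SEC24D 0.011, SEC23A 0.0083, SEC24A 0.051, TMED3 -0.0063, TMED9 -0.12, TMED5 0.0015, COPE -0.025, COPB2 0.0092, COPB1 0.047, ARFGAP1 -0.059, ARF1 -0.11, ARF4 0.090, ARF6 0.15, TRAPPC6A -0.041, TRAPPC1 -0.033, STX10 -0.066, STX6 0.014, SEC22B 0.26, SEC22A 0.13, STX7 0.14, and the ratios SEC24D to SEC24A -0.039, COPZ2 to COPZ1 -0.025, ARF5 to ARF6 -0.076, GOLGA8A to GOLGA8B -0.12, STX10 to STX6 -0.077. With the offsets and each library left out, added after the data had been seen, 1289, 1066, 1028 (without C1s-CM replicates 1, 2 and 3), 1090, 1048 and 957 (without control replicates 1, 2 and 3) genes were called, with 11, 11, 11, 11, 10 and 10 members higher and 7, 8, 7, 7, 7 and 7 lower. With the longest transcript 1362 genes and 16 higher and 8 lower members were called, with role medians of translocon 0.10, signal peptidase -0.11, COPII coat 0.0019, p24 cargo receptors 0.0094, ARF GTPases and regulators -0.046, tethering complexes -0.0031, golgins -0.20, SNAREs -0.029, and reversed values of SSR1 0.10, SEC63 0.033, SEC13 -0.022, SEC23A 0.11, SEC24A 0.037, TMED9 -0.14, COPZ1 -0.011, COPB2 0.19, COPB1 0.026, ARFGAP1 -0.068, ARF3 -0.046, ARF1 -0.18, ARF6 0.14, TRAPPC6A -0.053, TRAPPC1 -0.082, TRAPPC13 0.054, STX10 -0.067, STX5 -0.041, SEC22B 0.24, SEC22A 0.12, STX7 0.15. With the replicate block and the offsets 1161 genes, 12 higher and 8 lower members were called, with role medians of translocon 0.069, signal peptidase -0.11, COPII coat 0.011, p24 cargo receptors -0.0020, ARF GTPases and regulators -0.020, tethering complexes -0.038, golgins -0.18, SNAREs 0.012, and reversed values of SSR1 0.10, SEC63 0.051, SPCS3 0.0034, SEC13 -0.14, SEC24D 0.011, SEC23A 0.0081, SEC24A 0.051, TMED3 -0.0064, TMED9 -0.12, TMED5 0.0023, COPE -0.024, COPB2 0.0091, COPB1 0.047, ARFGAP1 -0.059, ARF1 -0.11, ARF4 0.090, ARF6 0.15, TRAPPC6A -0.043, TRAPPC1 -0.032, STX10 -0.065, STX6 0.012, SEC22B 0.26, SEC22A 0.13, STX7 0.14. The cause was not tested. Precision is limited by 3 libraries per group and by the low level of ARFGEF3, STX1A and the GOLGA8 copies.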
